A study of Mus musculus with 6 samples.

Results

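The genes described are 43 genes of G2 and mitosis, chosen by name: cyclins, mitotic kinases, spindle checkpoint, kinetochore, spindle and cytokinesis genes. All 43 were found by Ensembl identifier among the 38924 genes of the count table, and all 43 were among the 15525 genes tested. RNA was sequenced from CD49f+ epidermal cells sorted from mouse skin, CD49f being integrin alpha 6 of basal keratinocytes. All 6 samples were Rnaseh2b flox/flox. The 3 Cre-positive samples carried K14-Cre, a recombinase under the keratin 14 promoter, which is active in basal keratinocytes and their progeny, and the 3 Cre-negative samples did not. The labels give no age, treatment or batch, do not say that the replicates are separate animals, and K14-Cre cells without floxed alleles were not analysed here. Any effect of K14-Cre itself and of Rnaseh2b loss therefore cannot be told apart. The p-values measure only how these samples vary, which can include technical variation.

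RNase H2, to which Rnaseh2b contributes the B subunit, cuts DNA beside misplaced ribonucleotides so that they can be replaced. Entry into mitosis is driven by CDK1 bound to cyclins A2 and B, whose genes, like those of the spindle apparatus, are transcribed late in the cell cycle under the factors FOXM1, B-MYB and NF-Y. In resting cells the same promoters are held down by the DREAM complex, which binds a cell cycle homology region (CHR), and p53 acts on them through the CDK inhibitor p21. In epidermis these genes mark dividing basal cells and the hair matrix. In such bulk samples, fewer dividing cells and less mRNA per dividing cell cannot be told apart.

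RefSeq promoter windows (build GRCm38.p6, which shares coordinates with mm10) were at hand for 35 of the 43 genes, and the 250 bases before each start were searched on both strands. A CHR, spelled TTTGAA or TTTAAA, lay in 18 of the 35 windows (51.4%), against 28.1% of 27025 genes with a window. The NF-Y box CCAAT lay in 28 (80.0%), against 37.5% of all genes, and both motifs lay in 16 (45.7%), against 10.1%. These letters are matches, not shown binding sites. Foxm1, Ccna2, Cdc25c, Pbk, Aurkb, Incenp, Kif20a and Tpx2 had no window. The stretches below are a selection from genes described further on. Of the many members with low values in 1 library, 4 are shown (Cdk1, Top2a, Cdc20, Kif11). The others are the checkpoint gene with the lowest fold change (Bub1b) and the 2 genes with the highest fold changes (Gtse1, Psrc1). Each is written 5′ to 3′ on the gene's strand, trimmed to leave out annotated exons, with CHR and CCAAT matches of either orientation in capitals.
Cdk1 (chr10:69352939-69353058, minus strand): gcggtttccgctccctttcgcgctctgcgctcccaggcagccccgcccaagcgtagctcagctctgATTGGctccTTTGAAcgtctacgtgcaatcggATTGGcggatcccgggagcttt
Top2a (chr11:99024190-99024309, minus strand): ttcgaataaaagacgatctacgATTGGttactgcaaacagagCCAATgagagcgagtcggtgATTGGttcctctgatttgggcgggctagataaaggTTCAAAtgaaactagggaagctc
Cdc20 (chr4:118437353-118437472, minus strand): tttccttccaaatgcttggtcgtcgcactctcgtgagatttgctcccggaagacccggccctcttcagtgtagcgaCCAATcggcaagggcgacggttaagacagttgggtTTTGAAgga
Kif11 (chr19:37376262-37376381, plus strand): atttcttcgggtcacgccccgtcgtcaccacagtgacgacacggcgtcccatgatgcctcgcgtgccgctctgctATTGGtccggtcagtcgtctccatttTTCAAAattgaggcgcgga
Bub1b (chr2:118598091-118598210, plus strand): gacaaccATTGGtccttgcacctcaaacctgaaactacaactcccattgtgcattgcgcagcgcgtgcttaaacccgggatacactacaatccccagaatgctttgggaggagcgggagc
Gtse1 (chr15:85859587-85859706, plus strand): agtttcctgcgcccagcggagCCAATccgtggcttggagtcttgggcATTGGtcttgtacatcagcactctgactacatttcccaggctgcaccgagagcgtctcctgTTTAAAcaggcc
Psrc1 (chr3:108383742-108383803, plus strand): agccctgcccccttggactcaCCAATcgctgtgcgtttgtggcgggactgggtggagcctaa
The Cdk1, Top2a, Cdc20, Kif11 and Gtse1 stretches hold both motifs. Those of Bub1b and Psrc1 hold a CCAAT box, and no CHR was found in the 250 bases searched for either gene. Stretches cut in the same way for Ccnb1, Ccnb2 and Ube2c, not printed, hold CCAAT boxes only, and that of Mki67 holds CHR matches only. The 250 bases searched for each of these genes hold both motifs, so the printed selection is not typical.

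Library totals ran from 22948779 to 31718094 counts, and the members had between 175 and 9807 counts in any library. Rnaseh2b had 172, 90 and 69 counts in the Cre-positive libraries and 543, 504 and 570 in the Cre-negative ones, lower in the libraries labelled Cre-positive. CPM below is the count rate per library, in counts per 1e6 after TMM scaling (trimmed mean of M values). Per kilobase of exon, the basal keratins Krt5 and Krt14 averaged 3762 and 3054 CPM over the 6 libraries, and the suprabasal keratins Krt1 and Krt10 averaged 15152 and 26125, so the sorted cells also carried transcripts of differentiating cells. Itga6, which encodes CD49f, was between 290 and 409 CPM in every library. Cre-positive replicate 3 stood apart: its counts differed from those of the other Cre-positive libraries with a chi-square per degree of freedom of 69.2 and 49.4, against 14.7 between replicates 1 and 2 and 9.30 to 14.2 among the Cre-negative libraries. The counts and medians of the lists are therefore also given without it, and the fold changes of all 43 members without it are plotted. By Xist and Y-linked counts, Cre-positive replicates 1 and 2 and Cre-negative replicate 2 were male and the others female.

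No member passed the threshold of 0.05 in the quasi-likelihood test of edgeR, adjusted over all genes tested: 0 of 43 rose and 0 fell, where 0.406% of all tested genes rose and 0.110% fell. At an unadjusted p under 0.05 there was 1 member, Psrc1, against 18.8% of all genes. The DESeq2 Wald test called 1 member higher, Psrc1 again, and 0 lower, against 3.99% and 2.06% of the genes it adjusted. Limma-voom called 0 members, against 0.335% of all genes higher and 0.0902% lower. The log2 fold change, Cre-positive minus Cre-negative, was negative for 34 of 43 members, against 51.0% of all tested genes, and its median was -0.19, against -0.005 over all genes. The 95% interval of the log2 fold change included 0 for 42 members, and across the 43 the intervals reached from -0.98 to 1.09. The upper bound was under 0.58, a 1.5-fold rise, for 39 members, and 42 intervals lay within 1 of 0. A 1.5-fold fall lay within the intervals of members such as Mki67, Plk1 and Top2a (lower bounds -0.92, -0.89 and -0.78). It lay outside those of others, such as Cdc25b (-0.34). In the values that follow, ± after a log2 fold change is its standard error, and fold changes and adjusted p-values are from edgeR unless DESeq2 is named. Apart from Psrc1, the adjusted p of the members ran from 0.349 to 0.995.

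Replicate 3 of the Cre-positive group was apart in these genes too. It was the lowest of the 6 libraries for 42 of 43 members, whereas it was the lowest for 31.1% of all tested genes. The median member lay 0.86 below its Cre-negative mean on the log2 scale in this library, and at -0.01 and 0.13 in Cre-positive replicates 1 and 2. The Cre-negative libraries were at -0.002, -0.10 and 0.10. In total the 43 genes took 1475 CPM in replicate 3, against 2556 and 2756 CPM in the other Cre-positive libraries and 2357 to 2672 CPM in the Cre-negative ones. Relative to the mean of Cre-positive replicates 1 and 2, replicate 3 held between 43.5% (Nuf2) and 73.5% (Anln) of each member's CPM, and under 70% for 40 members, against 13.7% of all tested genes. The standard deviation of CPM was larger in the Cre-positive than in the Cre-negative group for 43 of 43 members (68.5% of all genes), by a median of 3.94 times (1.53 times over all genes).

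**Figure D1:**
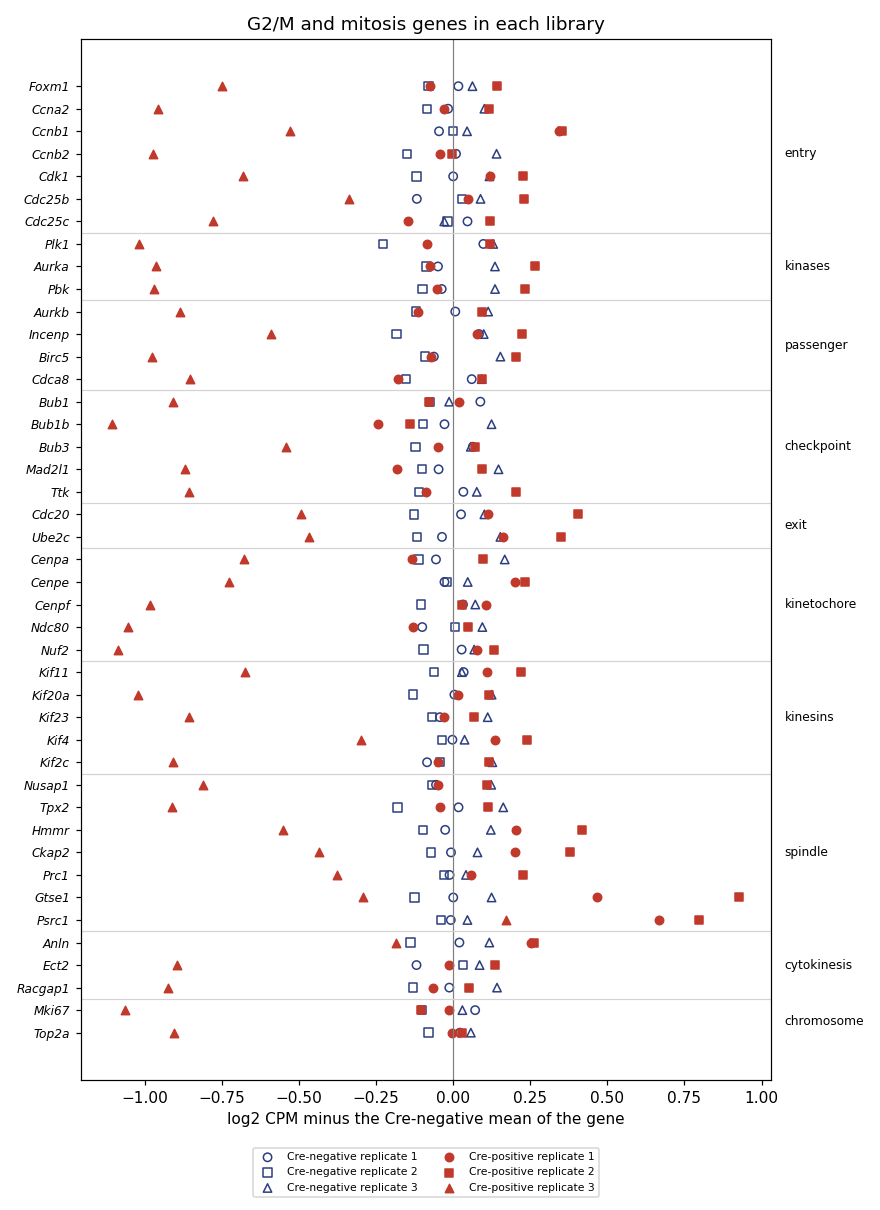
Log2 CPM of each of the 43 genes in each library, minus the gene's Cre-negative mean (horizontal axis), with genes ordered by role. Filled red symbols are Cre-positive and open blue symbols Cre-negative libraries; the red triangles of Cre-positive replicate 3 are the lowest symbol in 42 of 43 lines, and Psrc1 is the exception.

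Without that library 23 of 43 members turned from a negative to a positive fold change. The log2 fold change was positive for 32 and negative for 11 of 43 members, with a median of 0.06, against 50.5% negative among all genes. EdgeR then called 2 members higher, Psrc1 and Ccnb1, and 0 lower, against 1.81% and 0.841% of all genes tested there. Both Cre-positive libraries left were male, whereas of the Cre-negative libraries only replicate 2 was. Group and sex therefore cannot be fully told apart in this comparison. The 11 members that stayed negative were Bub1b at -0.20, Mki67 at -0.06, and Ccnb2, Cdc25c, Aurkb, Cdca8, Bub1, Mad2l1, Cenpa, Ndc80 and Racgap1 between -0.05 and -0.01. The 2 remaining Cre-positive libraries lay above every Cre-negative library for 14 members and below for 1, against 19.1% and 19.0% of all genes. The other libraries did not turn the median when left out: it ranged from -0.38 without Cre-positive replicate 2 to -0.14 without Cre-negative replicate 3. With sex as a covariate, the median was -0.39 and again 0 members passed, against 0.219% of all genes higher and 0.0515% lower. Cre-positive replicate 3 was the only female Cre-positive library and weighs more in that fit than in the main one. The lower median therefore cannot be told apart from the low levels of that library.

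**Figure D2:**
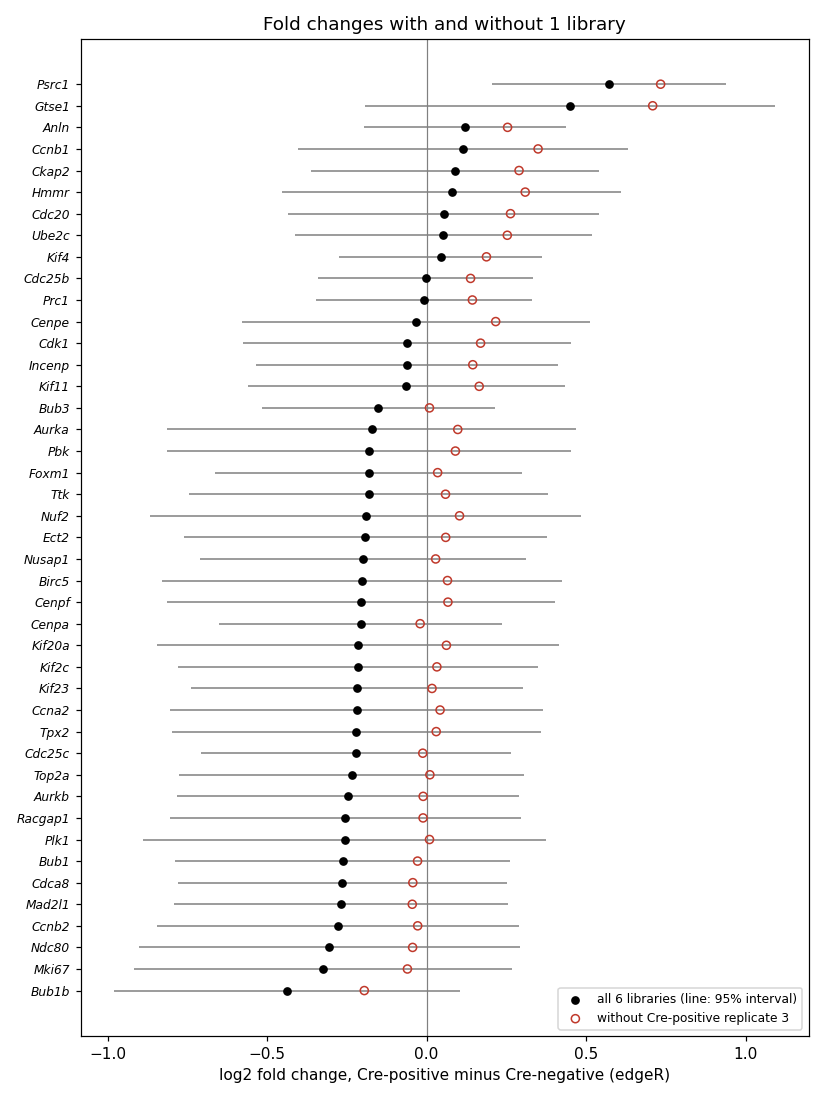
Log2 fold change of the 43 genes from edgeR over all 6 libraries (black points, with 95% intervals) and without Cre-positive replicate 3 (open red circles), ordered by value. Every red circle lies to the right of its black point, and the interval of Psrc1 alone excludes 0.

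Of the 7 genes of mitotic entry 0 passed the test, and all 7 were lowest in Cre-positive replicate 3. Cdk1, the kinase that drives mitosis, had 56.73, 61.1 and 32.6 CPM in Cre-positive replicates 1, 2 and 3 and 52.3, 48.1 and 56.71 CPM in Cre-negative ones. Cre-positive replicates 1 and 2 lay above every Cre-negative value, and replicate 3 lay below them all (log2 fold change -0.06 ± 0.22, adjusted p = 0.905 by edgeR). Without replicate 3 the log2 fold change was 0.17 (adjusted p = 0.327 by edgeR). Ccna2, the cyclin of S phase and G2, had 67.9, 75.02 and 35.6 CPM against 68.5, 65.3 and 74.3 CPM, and its log2 fold change was -0.22 ± 0.25. Of the exon length of Ccna2, 14.6% is shared with Exosc9 on the other strand, and the strand setting of the counting is not given. Ccnb2, a B-type cyclin, had 35.3, 36.2 and 18.5 CPM against 36.6, 32.7 and 40.1 CPM (log2 fold change -0.28 ± 0.24). For both cyclins the ranges overlapped and replicate 3 was again lowest.

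Ccnb1 is the other B-type cyclin. Its values were 25.7, 25.9 and 14.02 CPM in Cre-positive and 19.6, 20.2 and 20.9 CPM in Cre-negative libraries, so that 2 of 3 lay above and 1 below all Cre-negative values. The log2 fold change was 0.11 ± 0.22 (adjusted p = 0.807 by edgeR), and without replicate 3 it was 0.35 (adjusted p = 0.0462 by edgeR), while with sex as a covariate it was -0.08. Foxm1, the transcription factor of G2/M genes, had 64.4, 74.7 and 40.2 CPM against 68.6, 64.1 and 70.8 CPM, and its log2 fold change was -0.18 ± 0.20. The CDK1-activating phosphatase Cdc25c had 14.8, 17.7 and 9.50 CPM against 16.9, 16.1 and 16.0 CPM, and its log2 fold change was -0.22 ± 0.21. Cdc25b, the phosphatase that starts CDK1 activation, varied less, at 52.4, 59.4 and 40.2 CPM against 46.7, 51.7 and 53.9 CPM (log2 fold change -0.003 ± 0.14). Replicate 3 kept 71.8% of the level of the first 2 Cre-positive libraries for Cdc25b and 49.9% for Ccna2.

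The 3 mitotic kinases and the 4 chromosomal passenger genes were likewise lowest in replicate 3, and 0 passed the test. Plk1, the polo-like kinase of spindle assembly, had 34.6, 39.9 and 18.1 CPM in Cre-positive and 39.3, 31.3 and 40.2 CPM in Cre-negative libraries (log2 fold change -0.26 ± 0.27). Aurka, the kinase of the spindle poles, had 24.2, 30.7 and 13.1 CPM against 24.7, 24.0 and 28.05 CPM, and its log2 fold change was -0.17 ± 0.27. Pbk, a mitotic kinase gene, had a log2 fold change of -0.18 ± 0.27, and for all 3 kinases replicate 3 held between 47.6% and 48.6% of the other Cre-positive mean. Aurkb, the kinase of the passenger complex, had 42.9, 49.6 and 25.1 CPM against 46.7, 42.7 and 50.3 CPM, and its log2 fold change was -0.25 ± 0.23. Birc5, which encodes survivin of that complex, had 31.8, 38.5 and 17.0 CPM against 32.01, 31.4 and 37.2 CPM, and its log2 fold change was -0.20 ± 0.27. The scaffold gene Incenp was at 88.8, 98.3 and 55.9 CPM against 89.3, 74.2 and 90.2 CPM (log2 fold change -0.06 ± 0.20), and Cdca8, for borealin, had a log2 fold change of -0.26 ± 0.22. In these 7 genes the groups overlapped through Cre-positive replicates 1 and 2.

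Among spindle checkpoint genes Bub1b, which encodes BUBR1, had the lowest fold change of all 43. It had 59.99, 64.5 and 33.0 CPM in Cre-positive and 69.7, 66.5 and 77.5 CPM in Cre-negative libraries, with no overlap (log2 fold change -0.44 ± 0.23, adjusted p = 0.349 by edgeR). It was the only member whose Cre-positive values all lay below the Cre-negative ones, a pattern shown by 13.8% of all tested genes. Without replicate 3 its log2 fold change was -0.20 (unadjusted p = 0.0441, adjusted p = 0.246 by edgeR). Bub1, the partner kinase, had 19.3, 18.1 and 10.1 CPM against 20.3, 18.1 and 18.9 CPM, and its log2 fold change was -0.26 ± 0.22. Bub3, which brings both to kinetochores, had 69.6, 75.8 and 49.5 CPM against 75.4, 66.3 and 75.01 CPM (log2 fold change -0.15 ± 0.16), and kept 68.1% of its level in replicate 3 where Bub1b kept 52.99%. The checkpoint effector Mad2l1 had 26.0, 31.6 and 16.2 CPM against 28.6, 27.6 and 32.7 CPM (log2 fold change -0.27 ± 0.22), and the checkpoint kinase Ttk had a log2 fold change of -0.18 ± 0.24.

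The 2 genes of mitotic exit did not pass the test and had small positive fold changes. Cdc20, the activator of the anaphase-promoting complex, had 84.4, 103 and 55.4 CPM in Cre-positive and 79.4, 71.4 and 83.7 CPM in Cre-negative libraries (log2 fold change 0.05 ± 0.21). Ube2c, the ubiquitin-conjugating enzyme of that complex, had 0.05 ± 0.20, and both signs turned under scaling by total count and with sex as a covariate. Ube2c shares 22.8% of its exon length with Tnnc2 on the other strand. Per kilobase of exon Cdc20 was the most abundant member, with a mean of 42.6 CPM, followed by Bub3 with 33.4 and Mki67 with 27.2. Bub1 was the least abundant with 4.01. Cdc20 shares 2.84% of its exon length with Elovl1 on the other strand, which averaged 16513 counts.

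Kinetochore genes were all lowest in replicate 3. Cenpa, the centromeric histone H3 variant, had 46.7, 54.8 and 31.98 CPM in Cre-positive and 49.3, 47.4 and 57.5 CPM in Cre-negative libraries, and its log2 fold change was -0.21 ± 0.19. Ndc80, whose protein binds microtubules, had 19.4, 21.9 and 10.2 CPM against 19.8, 21.3 and 22.6 CPM (log2 fold change -0.30 ± 0.25). Its partner Nuf2 was at 43.5% of the other Cre-positive mean in replicate 3, the smallest share of all members, and had a log2 fold change of -0.19 ± 0.29. The kinetochore motor Cenpe and the large protein gene Cenpf had -0.03 ± 0.23 and -0.21 ± 0.26. Of the mitotic kinesins, Kif11, which pushes spindle poles apart, had 88.4, 95.5 and 51.3 CPM against 83.9, 78.5 and 83.6 CPM (log2 fold change -0.06 ± 0.21). Kif20a, Kif23 and Kif2c had log2 fold changes of -0.22 ± 0.27, -0.22 ± 0.22 and -0.22 ± 0.24, and Kif4, a chromosome motor, had 0.04 ± 0.14. The sign of Kif4 turned under total count scaling and with sex as a covariate. Kif20a shares 33.2% of its exon length with Cdc23 on the other strand, and Kif4 shares 15.1% with Pdzd11.

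The cytokinesis and chromosome genes did not pass the test either. Mki67, the proliferation marker that coats mitotic chromosomes, had 301, 283 and 146 CPM in Cre-positive and 320, 284 and 311 CPM in Cre-negative libraries (log2 fold change -0.32 ± 0.25, adjusted p = 0.510 by edgeR). Top2a, the topoisomerase that disentangles sister chromatids, had 261, 267 and 140 CPM against 266, 248 and 272 CPM, and its log2 fold change was -0.24 ± 0.23. Both genes had about the Cre-negative level in Cre-positive replicates 1 and 2, with log2 fold changes of -0.06 and 0.01 when replicate 3 was left out. Anln, the actin-binding anillin of the cleavage furrow, had 67.8, 68.2 and 49.99 CPM against 57.7, 51.7 and 61.7 CPM (log2 fold change 0.12 ± 0.13) and kept the largest share of its level in replicate 3. Ect2 and Racgap1, which switch on RhoA at the cell equator, had log2 fold changes of -0.19 ± 0.24 and -0.26 ± 0.23.

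Psrc1 was the single member whose Cre-positive values all lay above the Cre-negative ones, as 14.1% of all tested genes did. It encodes a microtubule-binding spindle protein known as DDA3 and described as a p53 target, and lies on chromosome 3 from 108383839 to 108388231 in mm10. It had 38.8, 42.4 and 27.5 CPM in Cre-positive and 24.3, 23.7 and 25.2 CPM in Cre-negative libraries. Even replicate 3, the lowest Cre-positive value, was above the highest Cre-negative one. The log2 fold change was 0.57 ± 0.16 (95% interval 0.21 to 0.94, adjusted p = 0.149 by edgeR), and the DESeq2 Wald test gave 0.58 (adjusted p = 0.0249). Without replicate 3 it was 0.73 (adjusted p = 0.00475 by edgeR), and leaving out each library in turn gave 0.44 to 0.73. With sex as a covariate it was 0.46 (adjusted p = 0.162 by edgeR).

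Gtse1, also known as B99 and likewise described as a p53-inducible gene of G2, had the next highest fold change. It lies on chromosome 15 from 85859707 to 85876572 and had 21.6, 29.7 and 12.7 CPM against 15.6, 14.3 and 17.0 CPM. Replicates 1 and 2 lay above and replicate 3 below all Cre-negative values (log2 fold change 0.45 ± 0.27, adjusted p = 0.408 by edgeR). Without replicate 3 the log2 fold change was 0.71 and just missed the threshold (adjusted p = 0.0523 by edgeR), and without replicate 2 it was 0.14. With sex as a covariate it was 0.25 (adjusted p = 0.646 by edgeR). The other spindle genes did not pass the test. Hmmr, a spindle assembly factor, had 26.0, 30.2 and 15.4 CPM against 22.2, 21.1 and 24.6 CPM (log2 fold change 0.08 ± 0.23), and Ckap2 had a log2 fold change of 0.09 ± 0.19, both signs turning under total count scaling and with sex as a covariate. Prc1, which bundles midzone microtubules, had -0.01 ± 0.14, Nusap1 -0.20 ± 0.22 and Tpx2, the activator of Aurora A, -0.22 ± 0.25.

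Levels were also set against the mitotic genes themselves, by subtracting the median log2 CPM of the 43 genes in each library, a description chosen after the data had been seen. The relative level of Psrc1 was then -0.27, -0.37 and -0.14 in the Cre-positive libraries and -0.94, -0.90 and -0.99 in Cre-negative ones. On this scale replicate 3 had the highest relative Psrc1 level of all 6 libraries. Gtse1 lay at -1.11, -0.88 and -1.25 against -1.58, -1.63 and -1.56, so that its groups no longer overlapped. The mean difference between groups was 0.69 for Psrc1 and 0.51 for Gtse1, and the next was 0.25 for Anln. Bub1b had the largest negative difference, -0.36, with levels of 0.36, 0.23 and 0.12 against 0.58, 0.58 and 0.62. Groups without overlap were common on this scale. They were found for 8 members higher and 9 lower, these 3 genes among them, against 6.13% and 3.77% of all tested genes. Because the members' own median is subtracted, some members must lie above and others below it, so these differences describe the order within the list only. The subtraction also takes the shared low level of replicate 3 out of the members and shifts all other genes by it. The shares over all tested genes on this scale are therefore not a like comparison for the members.

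**Figure D3:**
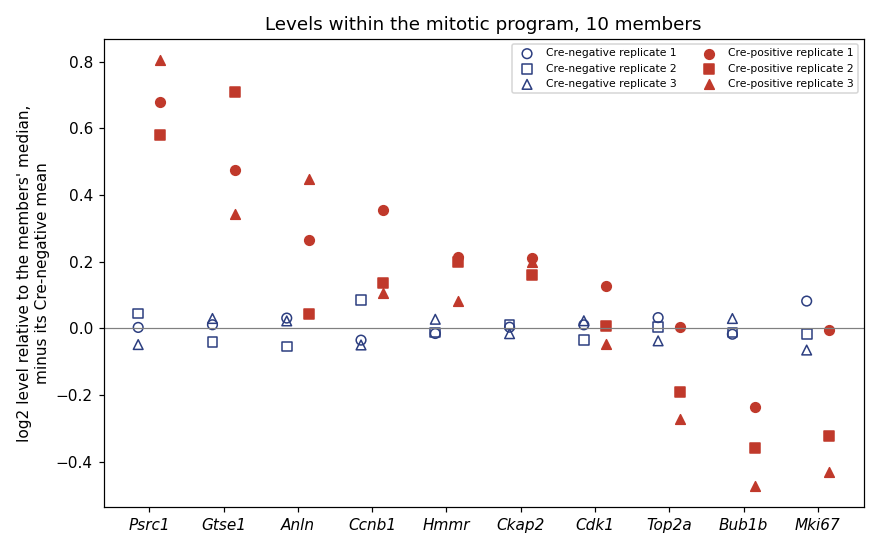
Log2 CPM of 10 members minus the median of the 43 genes in the same library, shown relative to the Cre-negative mean of that quantity (vertical axis), with 3 Cre-positive (red, filled) and 3 Cre-negative (blue, open) libraries. Psrc1, Gtse1, Anln, Ccnb1, Hmmr and Ckap2 lie above the Cre-negative points in all 3 Cre-positive libraries and Bub1b below them. The 10 members are a selection. Left out are Ube2c and Cdc20, also higher without overlap, and Foxm1, Cenpa, Ccna2, Aurkb, Racgap1, Cdca8, Mad2l1 and Ndc80, also lower without overlap.

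A list of 84 further mitosis genes (condensins, cohesins, other centromere, kinesin and spindle genes) was also lowest in replicate 3 for most genes. EdgeR called 0 higher and 0 lower, DESeq2 called 1 and limma-voom 0. An unadjusted p under 0.05 in edgeR was found for 1 higher and 3 lower, against 10.3% and 8.48% of all tested genes. The shares called over all genes were, as above, 0.406% higher and 0.110% lower by edgeR, and 3.99% and 2.06% by DESeq2. The median log2 fold change was -0.16. Of the 84 genes 70 were negative and 79 had their lowest value in replicate 3, against 51% and 31.1% of all tested genes. Tuba1c, an alpha-tubulin gene, had the smallest p and the highest fold change, with 49.5, 51.4 and 53.3 CPM against 38.5, 35.3 and 40.5 CPM (log2 fold change 0.43 ± 0.08, adjusted p = 0.0755 by edgeR). Its level in replicate 3 was not lower than in the other Cre-positive libraries, and DESeq2 called it (adjusted p = 0.0011). Cenpm, a gene of the constitutive centromere complex, had the lowest fold change, with 6.18, 6.95 and 3.18 CPM against 9.06, 8.26 and 9.93 CPM (log2 fold change -0.74 ± 0.27, adjusted p = 0.221 by edgeR). Pkmyt1, the kinase that inhibits CDK1, had -0.31 ± 0.11 (adjusted p = 0.213 by edgeR). Without replicate 3 edgeR called 3 of the 84 higher, Tuba1c, Mastl and Arhgap11a, and 0 lower, against 1.81% and 0.841% of all genes. The list median was then 0.02. Of 18 genes of the DREAM complex, the RB family and E2F and NF-Y factors, edgeR called 0 and DESeq2 1. The unadjusted p was under 0.05 for 3 higher and 2 lower, against the same 10.3% and 8.48% of all tested genes. Rb1, the retinoblastoma gene, had the smallest p (log2 fold change 0.33 ± 0.08, adjusted p = 0.118 by edgeR). The list median was 0.01, and without replicate 3 it was 0.06 with 0 called.

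Other lists also had their lowest or highest values in replicate 3, and their part in the low mitotic levels was not tested. Of all tested genes 31.1% were lowest and 29.1% highest in that library. At unadjusted p under 0.05 in edgeR, 10.3% of all tested genes were higher and 8.48% lower. Of 26 replication genes edgeR called 0 and DESeq2 1, with 6 lower at unadjusted p under 0.05, against the 8.48% of all tested genes. All 26 were lowest in replicate 3, with a list median of -0.76 against the Cre-negative mean. In Cre-positive replicates 1 and 2 that median was -0.13 and -0.09. Pold1, which encodes the main replicative subunit of polymerase delta, had the smallest p of that list (log2 fold change -0.44 ± 0.12, adjusted p = 0.156 by edgeR). The median log2 fold change of the replication list was -0.31, and without replicate 3 it was -0.12 with 0 called. Of 6 hair matrix markers tested, 5 were lowest there, and their summed level was 215 CPM against 269 and 270 in the other Cre-positive and 292 to 365 in the Cre-negative libraries. Krt35, a hair keratin, had the smallest p of these (log2 fold change -0.77 ± 0.24, adjusted p = 0.175 by edgeR), and the list median was -0.49, or -0.22 without replicate 3, with 0 called by edgeR in both and 1 by DESeq2 with all libraries. Suprabasal markers were in the opposite order: all 5 tested were highest in replicate 3, against 29.1% of all tested genes. Their list median was 0.81 there, against 0.14 and 0.41 in Cre-positive replicates 1 and 2. Ivl, the involucrin gene of the cornified envelope, had 303, 332 and 689 CPM against 241, 224 and 242 CPM (log2 fold change 0.91 ± 0.30, adjusted p = 0.193 by edgeR). EdgeR called 0 of the 5 (4 higher at unadjusted p under 0.05) and DESeq2 1. Without replicate 3 edgeR called 1, and the median log2 fold change went from 0.37 to 0.29. The 6 basal markers, with Itgb4 first by p (log2 fold change 0.50 ± 0.10, adjusted p = 0.0865 by edgeR), had a median of 0.26 in replicate 3, against 0.01 and -0.07. Here too most genes, 5 of 6, were highest in replicate 3. EdgeR called 0 of these 6 and DESeq2 1, with 1 higher at unadjusted p under 0.05, and without replicate 3 edgeR called 1 higher.

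Of 8 genes through which p53 slows the cell cycle, or which belong to its core loop, edgeR called 1, Ccng1, and DESeq2 called 3. Over all genes edgeR called 0.406% higher and 0.110% lower, and DESeq2 3.99% and 2.06%. At an unadjusted p of less than 0.05 in edgeR, 5 were higher and 1 lower, against 10.3% and 8.48% of all tested genes. Without replicate 3 edgeR called 2 higher, against 1.81% of all genes, and the list median went from 0.49 to 0.30. Ccng1, for cyclin G1, rose, with 80.5, 101 and 63.4 CPM against 24.7, 27.7 and 25.3 CPM (log2 fold change 1.65 ± 0.17, adjusted p = 0.0181 by edgeR). Cdkn1a, named because p21 was introduced above and after its values were seen, encodes p21 and had 361, 420 and 498 CPM in Cre-positive replicates 1, 2 and 3 against 328, 316 and 300 CPM (log2 fold change 0.44 ± 0.13, adjusted p = 0.163 by edgeR). Within the Cre-positive group replicate 3 had the highest Cdkn1a and the lowest Ccng1 value, and the part of either gene in the mitotic levels was not tested. Rnaseh2b itself was at 5.29, 3.98 and 3.28 CPM in the same order, against 20.7 to 21.8 CPM in the Cre-negative group.

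Markers of other cells also differed between libraries. The fibroblast list (6 tested) and the endothelial list (4 tested) had medians of -1.31 and -1.73 in Cre-positive replicate 3. These medians were -1.56 and -2.19 in Cre-positive replicate 2 and -1.18 and -1.54 in Cre-negative replicate 1. In the other libraries they ran from -0.16 to 1.79. EdgeR and DESeq2 called 0 of either list, and 0 had an unadjusted p under 0.05. The female Cre-negative libraries, replicates 1 and 3, had mitotic medians of -0.002 and 0.10, against -0.86 in the female Cre-positive library. T cell, myeloid and melanocyte medians were, like the mitotic median, lowest in replicate 3 within the Cre-positive group. The T cell medians were -0.68, -0.82 and -1.11 in Cre-positive replicates 1 to 3, and the summed levels 22.7, 17.9 and 28.3 CPM, against 26.6 to 31.0 CPM in Cre-negative libraries. EdgeR called 0 of the 4 T cell markers tested and DESeq2 2, with 3 lower at unadjusted p under 0.05, against 8.48% of all tested genes. The myeloid medians were 0.04, 0.16 and -0.35 over 5 markers, and the summed levels 77.8, 77.6 and 57.1 CPM, against 90.3 to 124 CPM. Lyz2, the lysozyme gene, rose and H2-Ab1, an MHC class II gene, fell, while Cd207, the langerin gene, was under the count filter. The melanocyte medians were 1.04, 1.10 and 0.72, and the summed levels 688, 694 and 595 CPM, against 333 to 388 CPM. Of 6 melanocyte markers 5 rose, against 0.406% of all tested genes. Tyrp1, a pigment enzyme gene, was first by p (log2 fold change 1.45, adjusted p = 0.00938 by edgeR). Without replicate 3 edgeR called 0 T cell markers, 2 myeloid markers higher and 2 lower, 5 melanocyte markers higher, and 0 fibroblast or endothelial markers. Over all genes it then called 1.81% higher and 0.841% lower. The part of these cells, and that of sex, in the mitotic levels was not tested.

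**Figure D4:**
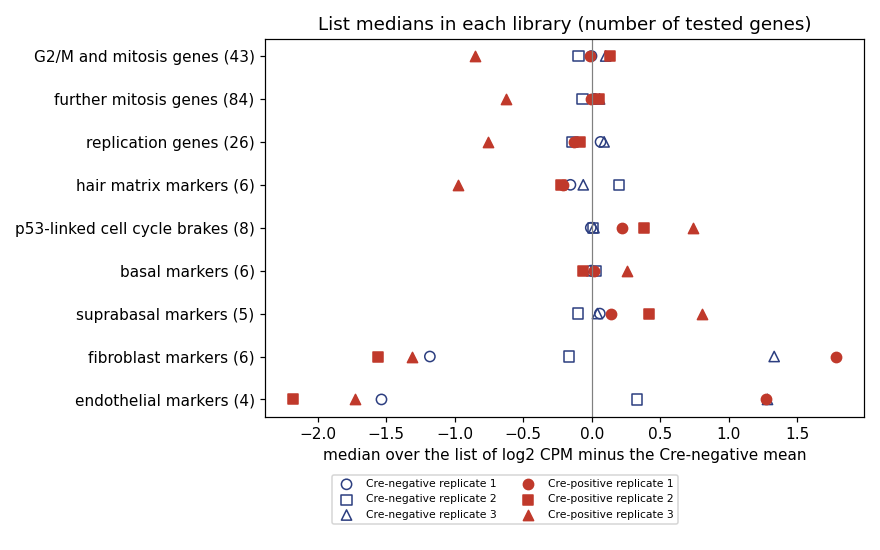
Median over each gene list of log2 CPM minus the Cre-negative mean (horizontal axis), for 9 lists and 6 libraries (red filled, Cre-positive; blue open, Cre-negative). In Cre-positive replicate 3 the mitosis, replication and hair matrix lists lie between -0.62 and -0.98 and the suprabasal list at 0.81. The fibroblast and endothelial lists are low in Cre-positive replicates 2 and 3 and in Cre-negative replicate 1.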

How the data were processed

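For 6 libraries the deposited values are raw counts per gene with exon lengths, per the file headers. The submitters' processing notes name GSNAP, featureCounts and mm10. Their versions, the strand setting and the treatment of reads shared between genes are not stated there. Symbols came from Ensembl identifiers (37607 of 38924 matched), and 3 of 226 listed genes (Flg, Trdc, Krt85) were not found. Genes were filtered with filterByExpr (minimum count 10), scaled by TMM and tested in edgeR 4.0.16 under R 4.3.3 by the two-sided quasi-likelihood test, without covariates, with Benjamini-Hochberg adjustment over 15525 genes. A floor of 3 counts equals 0.0922 to 0.143 CPM and covers counting error only. Log2 CPM used a prior count of 2. Overlapping partners are named from 5% of the exon length and a mean of 10 counts, and Elovl1 beside Cdc20 for its high count.

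The members and lists were chosen with earlier results of these data known. All members are named, and per-library values are given for a fixed subset, for unadjusted p under 0.05 or no overlap, and for the 3 highest and 3 lowest fold changes. Of the further mitosis genes the 3 smallest p-values and the extremes are named, and of other lists the smallest p. The alternatives were DESeq2 1.42.0 (Wald test; size factors), limma-voom 3.58.1, total count scaling, a minimum mean of 1 CPM, no filter beyond 1 count and each library left out. A sex term (Xist and Y-linked genes) came later, once results were known. The main edgeR, DESeq2 Wald and limma-voom fits were tested on simulated counts, and the other alternatives were not. The simulation drew each gene independently, with no library set apart.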

Additional observations from a re-analysis of the deposited data

How the results depend on the processing

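Limma-voom and a filter of 1 count changed neither the sign nor the call of any of the 43 members. The DESeq2 Wald test called 1 member and 1 further mitosis gene higher, and 559 genes higher and 288 lower among all genes. No filter beyond 1 count gave 104 and 38, and total count scaling, which moved the median log2 fold change of all genes to -0.12 and that of the members to -0.29, gave 27 higher and 14 lower, against 63 and 17 with TMM. Cdc25b, near 0 throughout, turned to 0.00524 with the Wald test, 0.00531 with DESeq2 size factors and 5.5e-05 at a minimum mean of 1 CPM. Under total count scaling the log2 fold changes turned to -0.045 (Cdc20), -0.046 (Ube2c), -0.059 (Kif4), -0.018 (Hmmr), -0.0095 (Ckap2). Sex as a covariate, chosen after seeing the data, gave 34 higher and 8 lower among all genes. It turned Ccnb1 to -0.079, Cdc20 to -0.079, Ube2c to -0.072, Kif4 to -0.045, Hmmr to -0.085, Ckap2 to -0.047. Cre-positive replicate 3, the only female Cre-positive library, weighs more in that fit than in the main one. These turns cannot be told apart from its low levels. The median of the members ran from -0.39 to -0.18 under settings that kept all libraries.

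Leaving out 1 library at a time gave 0 to 2 members higher and 0 lower, 0 to 3 further mitosis genes higher, and 0 to 288 higher and 0 to 134 lower among all genes, the highest counts being without Cre-positive replicate 3. Across these refits the log2 fold changes of 29 members took both signs: Foxm1 -0.37 to 0.034, Ccna2 -0.42 to 0.042, Ccnb1 -0.020 to 0.35, Cdk1 -0.23 to 0.17, Cdc25b -0.13 to 0.14, Plk1 -0.48 to 0.0089, Aurka -0.45 to 0.098, Pbk -0.44 to 0.090, Incenp -0.22 to 0.14, Birc5 -0.45 to 0.065, Bub3 -0.28 to 0.0088, Ttk -0.42 to 0.059, Cdc20 -0.16 to 0.26, Ube2c -0.12 to 0.25, Cenpe -0.19 to 0.22, Cenpf -0.39 to 0.067, Nuf2 -0.38 to 0.10, Kif11 -0.23 to 0.16, Kif20a -0.41 to 0.062, Kif23 -0.38 to 0.017, Kif4 -0.064 to 0.19, Kif2c -0.41 to 0.032, Nusap1 -0.38 to 0.028, Tpx2 -0.42 to 0.030, Hmmr -0.12 to 0.31, Ckap2 -0.080 to 0.29, Prc1 -0.14 to 0.14, Ect2 -0.38 to 0.060, Top2a -0.39 to 0.010. The cause was not tested. No paired analysis was possible because the labels give no pairing between the groups. The replicate numbers used here only follow the order in which the samples are listed, and equal numbers do not mark pairs. With 3 libraries a group and a median biological coefficient of variation of 0.203 for the members, against 0.139 for all genes, the precision is set by the spread between libraries more than by counts.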
